A study of Rattus norvegicus with 24 samples.

Results

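The messages of Fos, Egr1 and Arc, 3 immediate early genes, were followed in every library of a study of the amygdala and the dorsal raphe of rats. They were chosen by their Ensembl gene IDs: ENSRNOG00000008015 (Fos), ENSRNOG00000019422 (Egr1) and ENSRNOG00000043465 (Arc), which are 3 of the 32662 genes in each deposited count table. The rats were 60 days old and came from lines bred for opposite responses to novelty, called high responders and low responders. Each pairing of line and region (high-responder amygdala, low-responder amygdala, high-responder dorsal raphe and low-responder dorsal raphe) had 6 poly-A RNA libraries, 24 in all. The labels give no treatment, behavioural test, sex or time of tissue collection, and they do not say whether the 6 libraries of a group are 6 animals or whether one rat gave both regions. A p-value of a difference below thus sets it against the variation among libraries of a group, part of which may be technical. A permutation p-value of a correlation treats the libraries as independent, which the labels do not establish.

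Immediate early genes are transcribed within minutes of a stimulus and need no new protein for it. In neurons the stimulus is calcium entry and kinase signalling that act on factors already bound near the gene, among them serum response factor, which binds CArG boxes, and CREB, which binds cAMP response elements. Fos encodes a subunit of the AP-1 transcription factor, Egr1 a zinc-finger transcription factor, and Arc a protein of dendrites and synapses that acts in the removal of AMPA receptors from the synapse. Their messages are short-lived, and they are widely used to mark neurons that were recently active, the amygdala included.

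Because the results turn on the 3 genes moving together in single libraries, their promoters were looked up in the RefSeq promoter table of the build GRCr8. The table matched 1 of the 3, Egr1, and the promoters of Fos and Arc were not analysed here. The 250 bases before the Egr1 start, at chr18:26736828-26737077 on the plus strand, are shown 5′ to 3′ with CArG boxes and the core letters of the cAMP response element in capitals.
Egr1: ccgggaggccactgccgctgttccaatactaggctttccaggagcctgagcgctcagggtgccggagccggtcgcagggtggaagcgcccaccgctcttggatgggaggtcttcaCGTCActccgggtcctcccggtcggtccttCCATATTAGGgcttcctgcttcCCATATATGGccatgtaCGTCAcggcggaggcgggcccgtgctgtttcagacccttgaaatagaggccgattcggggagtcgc
The window held 2 CArG boxes, at 105 to 96 and at 83 to 74 bases before the start. At least 1 CArG box was present in 1.5% of 33469 rat promoter windows of the same length. The core letters of the cAMP response element, TGACG on either strand and printed here as CGTCA, occurred at 135 to 131 and at 66 to 62 bases before the start, and 18.2% of the windows held them. The full element TGACGTCA, which contains these core letters, was present in 1.59% of the windows, the AP-1 site TGANTCA in 6.34% and the EGR site GCGNGGGCG, searched on both strands, in 4.29%. None of these last 3 was in the Egr1 window. A match describes the letters only and shows no binding in these rats.

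Library totals ranged from 9232983 to 20194601 counts. The 3 genes rested on 25 to 621 counts for Fos, 156 to 2888 for Egr1 and 64 to 2298 for Arc in a library. The lowest of all, 25 Fos counts in high-responder amygdala library 6, has an exact Poisson 95% interval of 16.2 to 36.9 counts, which covers counting error only. Levels are given below as CPM, counts scaled to a common library size with TMM factors (a correction for differences in RNA composition). CPM is not scaled by gene length, so levels are compared between libraries of 1 gene and not between genes. The numbers in the file labels put each group's libraries into an earlier and a later run (libraries 5 and 6 of each group are later, and also library 4 of the high-responder raphe). In the raphe 6919 of 14390 genes (48.1%) differed between these runs within the lines. Every low-responder library has a lower file number than every high-responder library, so line and order of file numbers cannot be told apart. In whole tissue, fewer cells of a type and less RNA per cell cannot be told apart either.

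All 3 genes varied widely between amygdala libraries of the same line. Fos and Arc varied less between raphe libraries in both lines, and Egr1 varied much less there in high responders but nearly as much in low responders. Fos, in high-responder amygdala libraries 1 to 6, stood at 11.8, 4.43, 9.86, 21.4, 3.89 and 2.40 CPM, a mean of 8.97 ± 7.12 CPM (SD, n = 6). In low-responder amygdala libraries 1 to 6 it stood at 14.8, 32.5, 7.82, 46.9, 19.1 and 15.3 CPM, a mean of 22.7 ± 14.4 CPM (SD, n = 6). The ranges of the lines overlapped: library 4 was the highest of either line, 3 of the 6 values in high responders were under every low-responder value, and 2 of the 6 in low responders were over every high-responder value. In the dorsal raphe Fos stood at 18.8, 11.1, 8.71, 11.8, 7.65 and 14.1 CPM in high-responder libraries 1 to 6 (12.02 ± 4.02 CPM, SD, n = 6). In low-responder raphe libraries 1 to 6 it stood at 11.6, 8.08, 9.80, 7.03, 13.5 and 11.7 CPM (10.3 ± 2.43 CPM, SD, n = 6). These raphe ranges overlapped, and both lay within the range of the amygdala libraries.

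Egr1 had a narrower relative spread than Fos in the amygdala and a clear gap between the regions. It stood at 115, 68.6, 92.1, 171, 76.2 and 68.5 CPM in high-responder amygdala libraries 1 to 6 (98.6 ± 39.6 CPM, SD, n = 6). In low-responder amygdala libraries 1 to 6 it stood at 117, 179, 62.4, 218, 120.5 and 126 CPM (137 ± 54.3 CPM, SD, n = 6). The same libraries were high as for Fos, number 4 in each line and number 2 in the low-responder line, and low-responder library 3 was the lowest of all 12. High-responder raphe libraries 1 to 6 stood close together at 19.7, 19.7, 20.2, 19.3, 20.2 and 21.4 CPM (20.1 ± 0.732 CPM, SD, n = 6). Their coefficient of variation of 3.64% lay below the 6.21% that counting error alone gives at these counts. Low-responder raphe libraries 1 to 6 stood at 12.5, 16.3, 15.2, 13.4, 25.2 and 27.4 CPM (18.3 ± 6.35 CPM, SD, n = 6). Here libraries 1 to 4 lay below and libraries 5 and 6 above the whole high-responder raphe range.

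Arc was highest in the same 3 amygdala libraries as Fos and Egr1. In high-responder amygdala libraries 1 to 6 it stood at 44.3, 17.8, 29.6, 101, 24.3 and 21.1 CPM (39.7 ± 31.6 CPM, SD, n = 6). In low-responder amygdala libraries 1 to 6 it stood at 68.1, 104, 34.8, 173, 66.4 and 58.5 CPM (84.3 ± 49.1 CPM, SD, n = 6). The ranges overlapped, with 4 high-responder values under, and 2 low-responder values over, all those of the other line. Arc stood at 9.15, 7.25, 9.41, 7.89, 7.09 and 10.8 CPM in high-responder raphe libraries 1 to 6 (8.59 ± 1.43 CPM, SD, n = 6). In low-responder raphe libraries 1 to 6 it stood at 7.22, 7.55, 6.42, 5.91, 5.57 and 10.3 CPM (7.16 ± 1.71 CPM, SD, n = 6). The raphe ranges overlapped, and all 12 raphe values lay below the lowest amygdala value.

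**Figure D1:**
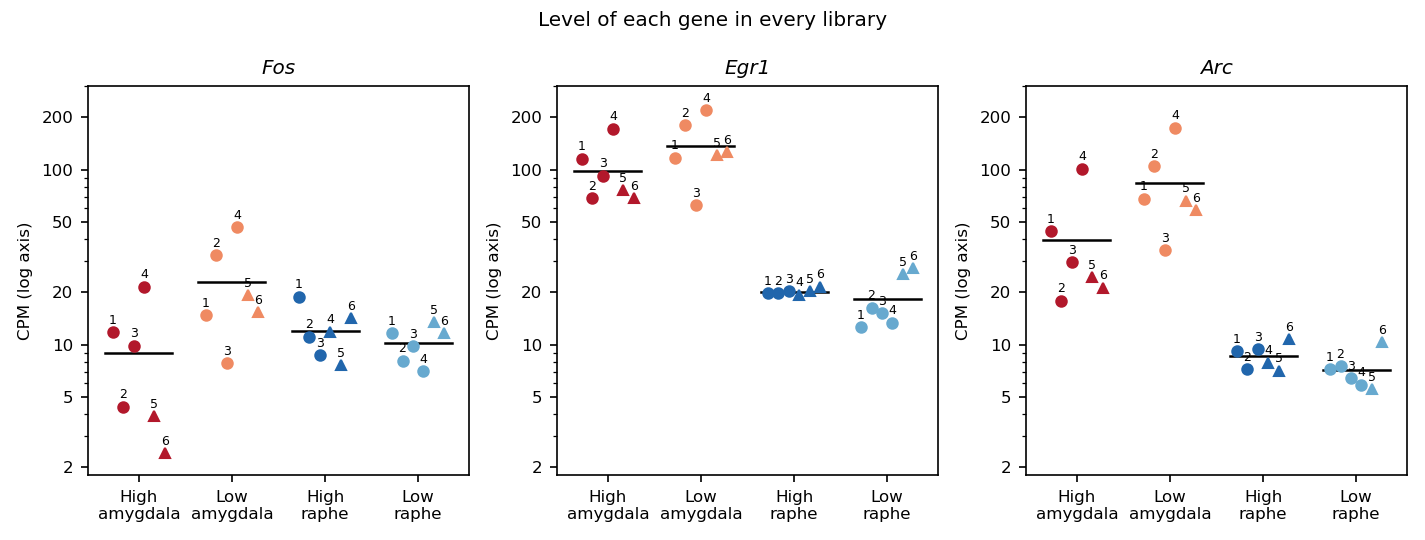
CPM (log axis) of Fos, Egr1 and Arc in each of the 24 libraries, by line and region; numbers are library numbers within a group, circles are the earlier and triangles the later run of library numbers, and bars are group means. Library 4 is the highest of each amygdala group for all 3 genes, and Egr1 and Arc in the amygdala lie above every raphe value.

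Over the 12 amygdala libraries the highest level was 19.5 times the lowest for Fos, 9.74 times for Arc and 3.496 times for Egr1. Over the 12 raphe libraries the same ratios were 2.67, 1.93 and 2.19. Within groups the coefficient of variation of Fos CPM was 79.3% in high-responder and 63.2% in low-responder amygdala, where counting error alone gives 13.0% and 6.96%. In the raphe it was 33.4% and 23.6% against a counting error of 8.41% and 9.44%. For Arc it was 79.4% and 58.3% in the amygdala (counting error 5.54% and 3.48%) and 16.6% and 23.9% in the raphe (9.65% and 11.2%). For Egr1 it was 40.2% and 39.6% in the amygdala, against a counting error of 3.12% and 2.61%. In the raphe Egr1 stood at 3.64% in high responders (6.21%) and at 34.7% in low responders (7.13%), the latter close to its amygdala value.

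That spread was set beside all other genes with edgeR's biological coefficient of variation, the fitted spread between libraries of a group beyond counting error. In the amygdala it was 0.580 for Fos, 0.509 for Arc and 0.331 for Egr1, against a median of 0.135 over 14265 genes. Only 70 genes had a higher value than Fos, 119 a higher value than Arc and 563 a higher value than Egr1. In the raphe it was 0.266 for Fos, 0.225 for Egr1 and 0.187 for Arc, against a median of 0.167 over 14390 genes, and 2940, 4237 and 5978 genes had higher values. In the amygdala at least 96.0% of genes had a lower value than each of the 3. In the raphe 79.6% were lower than Fos, 70.5% than Egr1 and 58.5% than Arc. These fits had line but not number run as a term. With both terms the raphe median was 0.121, and 90.6% of genes were lower than Fos, 71.7% than Egr1 and 75.2% than Arc. The amygdala shares were then 99.2%, 95.6% and 99.0%. The difference between the regions was not tested.

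**Figure D2:**
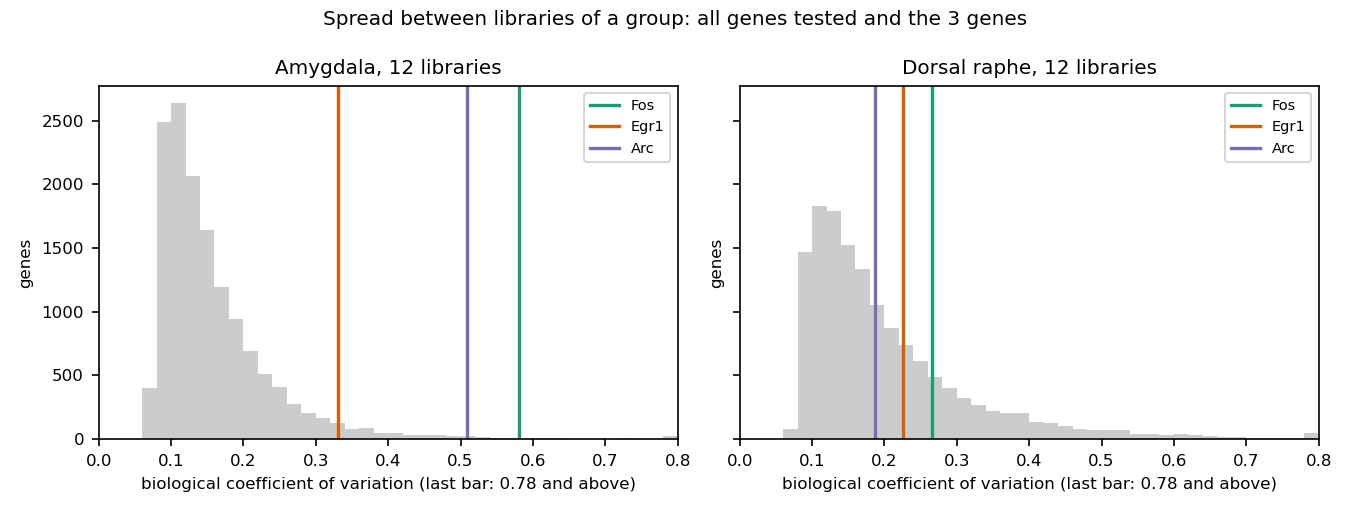
Number of genes (vertical axis) by biological coefficient of variation (horizontal axis, no unit) in the 12 amygdala and the 12 dorsal raphe libraries; the last bar gathers genes at 0.78 and above, and coloured lines mark Fos, Egr1 and Arc. The 3 lines lie at 0.331 to 0.580 in the amygdala, far right of the median of 0.135, and at 0.187 to 0.266 in the raphe, where the median is 0.167.

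The next question was whether the 3 genes rise in the same libraries. In the amygdala they did. Low-responder library 4, low-responder library 2 and high-responder library 4 were numbers 1, 2 and 3 of the 12, in that order, for each of the 3 genes, and high-responder library 1 was number 7 for each. At the low end, high-responder libraries 2 and 6 were among the 3 lowest for every gene. The exception was low-responder library 3, the lowest for Egr1 but number 9 for Fos and number 8 for Arc. The 3 highest libraries had totals of 13178829, 12047705 and 10813896 counts, and the deepest library, high-responder 1, stood in the middle.

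For gene pairs 6 relations were computed, 3 in each region, on log2 CPM with a prior count of 2, and their p-values come from two-sided permutation of the pairings. In the amygdala Fos and Egr1 correlated with Pearson's r = 0.923 (n = 12, permutation p = 4e-05, adjusted p = 8e-05) and Spearman's rho = 0.944 (permutation p = 5e-05, adjusted 0.00015). Fos and Arc gave r = 0.954 (permutation p = 1e-05, the smallest the resampling can give, adjusted p = 6e-05) and rho = 0.951 (permutation p = 2e-05, adjusted 0.00012). Egr1 and Arc gave r = 0.946 (permutation p = 3e-05, adjusted p = 8e-05) and rho = 0.895 (permutation p = 0.00026, adjusted 0.00052). Without the 2 libraries farthest from the median of the first gene the 3 r values were 0.905, 0.951 and 0.978 (n = 10). Dropping 2 libraries cannot remove all 3 of the highest, so this does not show whether the relations rest on the extreme libraries. Without low-responder library 3 alone, the exception named above, Egr1 and Arc gave r = 0.984 (n = 11).

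The relations also held inside each line and over the earlier numbered libraries of both lines pooled. Earlier is set within each group, and all low-responder numbers precede the high-responder ones, so the pooled libraries are not 1 run. Over the 6 high-responder amygdala libraries r was 0.940 for Fos and Egr1, 0.890 for Fos and Arc and 0.992 for Egr1 and Arc (exact permutation p = 0.00417, 0.0111 and 0.00278). Over the 6 low-responder amygdala libraries it was 0.974, 0.982 and 0.963 (exact permutation p = 0.00417, 0.00556 and 0.00833). Adjusted over all 12 relations within groups, raphe included, these 6 exact p-values were 0.0167 to 0.0222. By rank the same 6 relations had rho of 0.771 to 0.943 with adjusted exact p of 0.0667 to 0.206, which does not pass. Without the 2 libraries farthest from the median, 4 libraries a group, r was 0.855 to 0.941. In the 8 earlier amygdala libraries r was 0.953, 0.976 and 0.932. No correlation was computed for the 4 later ones alone. With the means of line and number run removed from all 12, r was 0.953, 0.924 and 0.963.

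In the dorsal raphe no pair of the 3 genes passed the test over the 12 libraries. High-responder library 6 was among the 3 highest and low-responder library 4 among the 3 lowest for every gene, but library 1 of the high-responder line was number 1 for Fos, number 7 for Egr1 and number 4 for Arc. Low-responder library 5 was number 3 for Fos, number 2 for Egr1 and last for Arc. Pearson's r over the 12 libraries was 0.408 for Fos and Egr1, 0.386 for Fos and Arc and 0.424 for Egr1 and Arc (permutation p = 0.187, 0.215 and 0.169, adjusted p = 0.215 for each). Spearman's rho was 0.378, 0.420 and 0.378 (permutation p = 0.226, 0.177 and 0.227, adjusted p = 0.227 for each). Without the 2 libraries farthest from the median r was 0.302, 0.122 and 0.269, and in the 7 earlier libraries 0.377, 0.523 and 0.738. No correlation was computed for the 5 later ones alone. Without low-responder library 5, which has the lowest TMM factor of all 24 (0.922), Egr1 and Arc gave r = 0.769 (permutation, adjusted p = 0.00829) and rho = 0.7 (adjusted p = 0.0305). Without that library Fos and Arc gave r = 0.5998 (permutation, adjusted p = 0.0606) and rho = 0.673, which passed by rank (permutation, adjusted p = 0.0336). Of the 12 raphe libraries left out in turn, only this one, already seen to be discordant, made Egr1 and Arc pass. The adjustment covers the 6 pairs and not the choice of library, and why this library differs was not tested. The difference in correlation between the regions was not tested. Within the 6 libraries of either line in the raphe r was 0.0216 to 0.656, with adjusted exact permutation p of 0.238 to 0.968.

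**Figure D3:**
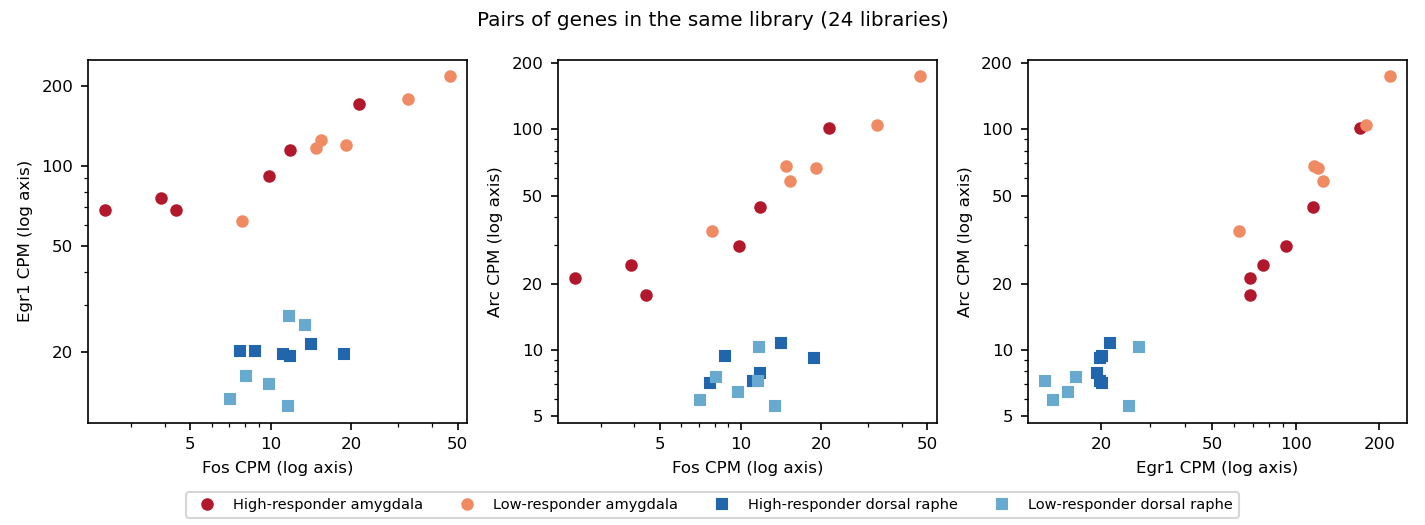
CPM of 1 gene against CPM of another (both on log axes) in the same library, for 12 amygdala libraries (circles) and 12 dorsal raphe libraries (squares) of both lines. The amygdala libraries of both lines fall along 1 rising band in each panel (r = 0.923, 0.954 and 0.946), while the raphe libraries form a compact cloud (r = 0.408, 0.386 and 0.424).

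Against all genes the likeness of the 3 was high. For each gene with a mean of at least 1 CPM, Pearson's r was taken over the 24 libraries after the 4 group means were removed, a description in which all genes share libraries and depth. Of 14236 genes, Arc was number 2 and Egr1 number 5 in likeness to Fos (r = 0.855 and 0.817, against a median of 0.0157 over all genes). In likeness to Egr1, Arc was number 4 and Fos number 7 (r = 0.842 and 0.817). In likeness to Arc, Fos was number 4 and Egr1 number 5. Within the 12 amygdala libraries with line means removed, Arc was the gene most like Egr1 of all 14233 (r = 0.964), Egr1 was number 5 and Arc number 6 in likeness to Fos, and Fos was number 9 and Egr1 number 4 in likeness to Arc. Within the raphe the ranks were 1205 (Egr1) and 1563 (Arc) in likeness to Fos, 4988 (Fos) and 5196 (Arc) in likeness to Egr1, and 2144 (Fos) and 1902 (Egr1) in likeness to Arc. Number run was not removed here, and 48.1% of raphe genes differed between the runs, Egr1 among them. In the raphe 921 genes had r of -0.6 to -0.55 with Egr1, and 911 had 0.55 to 0.6. How far the runs set these raphe ranks was not tested.

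Few other genes followed all 3. By the mean of the 3 r values over 24 libraries, 73 of 14234 other genes lay above 0.6, 20 above 0.7 and 4 above 0.8. The most alike was ENSRNOG00000003977 (26.7 CPM on average), with r of 0.842 with Fos, 0.887 with Egr1 and 0.876 with Arc. Next came ENSRNOG00000007607 (33.6 CPM), with 0.871, 0.838 and 0.835. The most opposite were ENSRNOG00000015675 (85.5 CPM), with -0.86, -0.76 and -0.83, and ENSRNOG00000047924 (4.69 CPM), with -0.84, -0.66 and -0.70. The deposited tables do not pair these IDs with symbols, so they are given by ID only. The mean of the 3 r values was not computed within the amygdala alone. There, with line means removed, 32 genes had r of 0.8 to 0.85 with Fos, 77 with Egr1 and 52 with Arc, and others lay higher.

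**Figure D4:**
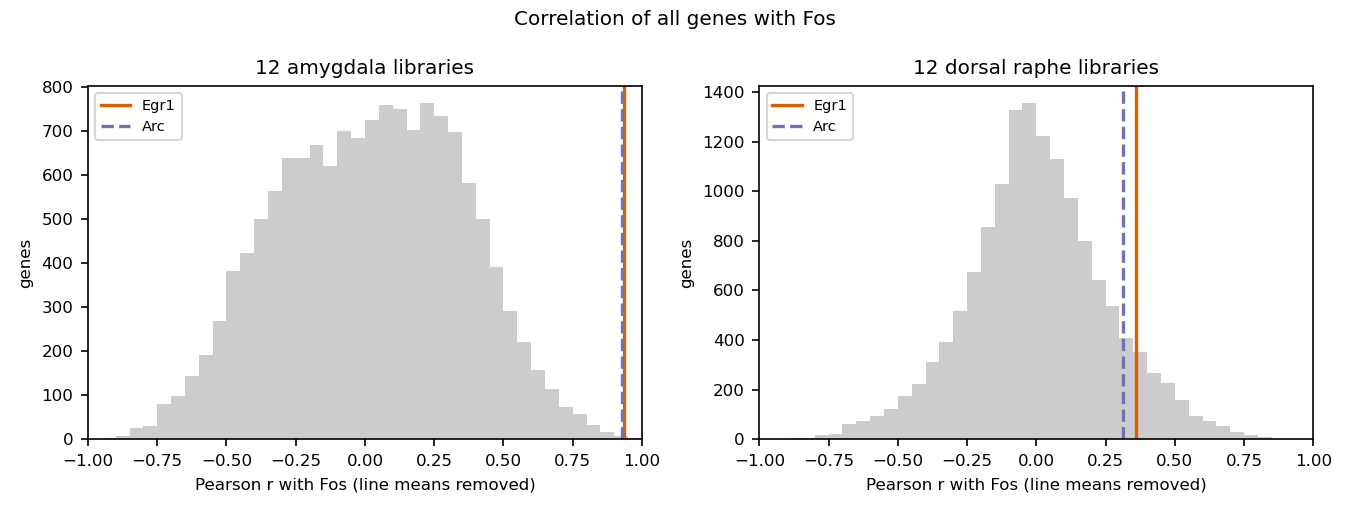
Number of genes (vertical axis) by Pearson's r with Fos (horizontal axis) over the 12 amygdala and the 12 dorsal raphe libraries, line means removed; coloured lines mark Egr1 and Arc. In the amygdala both lie at the far right edge of all genes (r = 0.936 and 0.926), and in the raphe inside the distribution (r = 0.359 and 0.312).

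The regions were compared to ask where the 3 messages were more abundant. Egr1 and Arc rose in the amygdala over the raphe, and Fos did not pass the test over both lines. The background of this comparison is wide, since 65.8% of 14977 genes passed the edgeR threshold (adjusted p under 0.05) in either direction and 31.8% were higher in the amygdala. Over both lines Egr1 was 6.07-fold higher in the amygdala (95% interval 4.63 to 7.96), a log2 difference of 2.60 (SE 0.19, edgeR adjusted p = 1.13e-11). Arc was 7.38-fold higher (4.98 to 10.96), a log2 difference of 2.88 (SE 0.28, edgeR adjusted p = 1.74e-09). All 12 amygdala libraries lay above all 12 raphe libraries for both genes, a separation that 11.8% of all genes showed in this direction. By size of the log2 difference in either direction 3.23% of all genes exceeded Egr1 and 2.54% exceeded Arc.

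Mean Fos was 15.9 ± 13.0 CPM over amygdala libraries and 11.2 ± 3.29 CPM over raphe libraries (SD, n = 12 each), a fitted ratio of 1.29 (95% interval 0.847 to 1.96) and a log2 difference of 0.37 (SE 0.29, edgeR adjusted p = 0.279). Its direction depended on the libraries used. In the earlier numbered libraries alone the log2 difference was 0.69 (edgeR adjusted p = 0.106) and in the later ones alone it was -0.68 (edgeR adjusted p = 0.0218). Among the later libraries 9251 of 15076 genes passed, 4748 of them lower in the amygdala.

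By line, Egr1 was 4.91-fold higher in the amygdala of high responders (3.36 to 7.16, log2 2.30, SE 0.26, edgeR adjusted p = 8.78e-08) and 7.51-fold higher in that of low responders (5.10 to 11.1, log2 2.91, SE 0.27, edgeR adjusted p = 2.14e-09). Arc was 4.62-fold higher in high responders (2.68 to 7.96, log2 2.21, SE 0.38, edgeR adjusted p = 3.11e-05) and 11.8-fold higher in low responders (6.66 to 20.9, log2 3.56, SE 0.40, edgeR adjusted p = 5.11e-08). Fos was 2.21-fold higher in the amygdala of low responders (1.22 to 4.00, log2 1.14, SE 0.41, edgeR adjusted p = 0.0225), where 5 of 6 amygdala libraries lay above all raphe ones. In high responders the Fos ratio was 0.751 (0.413 to 1.37, log2 -0.41, SE 0.42, edgeR adjusted p = 0.428). The share of all genes that passed was 51.5% in high responders (25% higher in the amygdala) and 54.5% in low responders (26.3% higher).

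The Fos call in low responders ended without amygdala library 4 (log2 0.80, edgeR adjusted p = 0.101) or library 2 (1.02, 0.0531), and it stood at 1.48 (0.0190) in earlier and 0.46 (0.226) in later libraries. With the earlier libraries 7373 of 15181 genes passed between regions in low responders. In high responders Fos was at -0.10 (0.902) in earlier libraries and fell in the later ones, at -1.83 (edgeR adjusted p = 0.002), where the 2 later amygdala libraries are the lowest of all 12 for Fos. With the later libraries 6681 of 15076 genes passed between regions in high responders, 3288 of them lower in the amygdala.

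The proportions of the 3 messages were also set side by side, a comparison chosen after the levels were seen and given without a test. Egr1 counts per Fos count, which do not depend on library size, ranged from 4.65 to 28.6 (median 8.09) in the 12 amygdala libraries and from 1.05 to 2.64 (median 1.83) in the 12 raphe libraries. Arc counts per Fos count ranged from 3.00 to 8.80 (median 3.92) and from 0.414 to 1.08 (median 0.714). Egr1 counts per Arc count overlapped, at 1.26 to 3.85 in the amygdala and 1.74 to 4.52 in the raphe. Fos thus stood apart from the other 2 in its share between regions. Within the amygdala the highest ratio of Egr1 to Fos, 28.6, was in high-responder library 6, where Fos was lowest, and the lowest, 4.65, was in low-responder library 4, where Fos was highest. Fos is the divisor of this ratio and varied more than Egr1 there, so such a placing is largely built in.

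The lines were compared in each region to ask whether these messages differ between high and low responders. None of the 3 passed the threshold in either region. In the amygdala all 3 had lower means in high responders, with a log2 difference of -1.33 for Fos (ratio 0.398, 95% interval 0.192 to 0.822, SE 0.49, edgeR adjusted p = 0.479). It was -1.09 for Arc (0.471, 0.247 to 0.897, SE 0.43, edgeR adjusted p = 0.518) and -0.48 for Egr1 (0.719, 0.478 to 1.08, SE 0.28, edgeR adjusted p = 0.6998). Without adjustment the edgeR p was 0.0164 for Fos, 0.0251 for Arc and 0.107 for Egr1. In that comparison 0.021% of 14265 genes passed after adjustment and 8.34% had an unadjusted p under 0.05. The median log2 difference of all genes was -0.0021, and 0.196% of them had a larger difference in either direction than Fos, 0.351% than Arc and 3.603% than Egr1. Since the 3 genes move together between libraries, their like direction is not 3 separate observations.

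The size of the amygdala difference varied with the libraries in it. In the 8 earlier libraries the log2 difference was -1.11 for Fos, -0.99 for Arc and -0.37 for Egr1 (edgeR adjusted p = 0.982, 0.982 and 0.984). In the 4 later ones, 2 a line, it was -2.44, -1.46 and -0.77 (edgeR adjusted p = 0.0146, 0.00645 and 0.0199). All 3 passed in that last subset, which rests on high-responder libraries 5 and 6 and low-responder libraries 5 and 6. In it 61 of 14284 genes were called, against 3 of 14265 over all 12 libraries. Leaving out 1 amygdala library at a time gave -1.76 to -0.98 for Fos, -1.60 to -0.74 for Arc and -0.70 to -0.29 for Egr1, and no call was gained.

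In the dorsal raphe the means of all 3 were slightly higher in high responders and the intervals included no difference. The log2 difference was 0.22 for Fos (ratio 1.16, 0.836 to 1.62), 0.13 for Egr1 (1.09, 0.832 to 1.44) and 0.26 for Arc (1.197, 0.942 to 1.52). Their SEs were 0.22, 0.18 and 0.16, each with an edgeR adjusted p of 0.999, and 0.0625% of 14390 genes passed (9 genes). In later libraries alone the sign turned for Fos (-0.16) and Egr1 (-0.37). An interaction term, fitted over the 24 libraries together, compared the line difference of the amygdala with that of the raphe. The amygdala difference minus the raphe difference was -1.56 for Fos (SE 0.59), -1.36 for Arc (SE 0.53) and -0.61 for Egr1 (SE 0.36). The unadjusted edgeR p was 0.0142, 0.0175 and 0.103, the edgeR adjusted p 1.000 for each, and 0.00668% of 14977 genes passed.

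Later and earlier numbered libraries were compared within the lines, since the raphe libraries differ widely by this order. Egr1 was higher in later raphe libraries, at 22.7 ± 3.46 CPM (SD, n = 5) against 16.7 ± 3.20 CPM (SD, n = 7), a ratio of 1.35 (1.10 to 1.66, log2 0.43, SE 0.14, edgeR adjusted p = 0.0197). This lay inside a background of 48.1% of genes called, 3491 higher (24.3%) and 3428 lower, a split that becomes 2549 and 4111 with library size only. The rise of Egr1 came with low-responder libraries 5 and 6: without either the call ended (log2 0.34 and 0.32, edgeR adjusted p = 0.0884 and 0.0652), and in the high-responder raphe the later libraries lay at 19.3 to 21.4 CPM and the earlier ones at 19.7 to 20.2 CPM. Fos and Arc did not pass in the raphe, with log2 differences of 0.12 (SE 0.22, edgeR adjusted p = 0.661) and 0.098 (SE 0.16, 0.633). In the amygdala the means of all 3 were lower in the later libraries, with log2 differences of -1.08 for Fos (SE 0.49), -0.83 for Arc (SE 0.44) and -0.42 for Egr1 (SE 0.29). None passed (edgeR adjusted p = 0.969 each), as for all 14265 genes there (0%), of which 545 had an unadjusted p under 0.05 and DESeq2 and limma voom called 2 each.

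**Figure D5:**
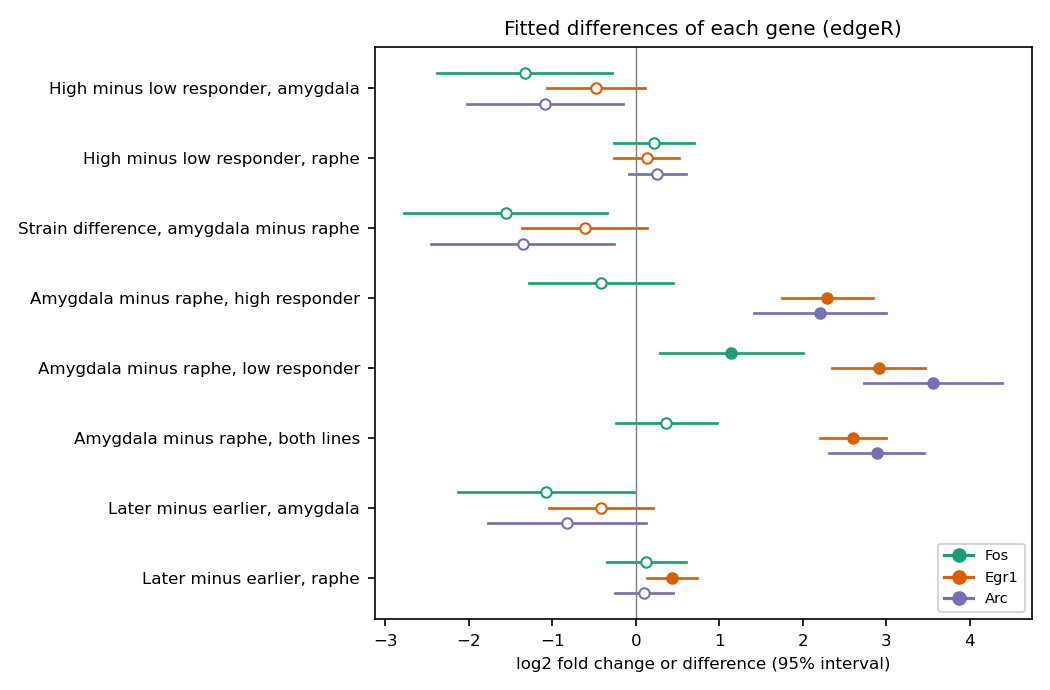
Log2 fold change, or difference of fold changes for the strain by region test, of Fos, Egr1 and Arc in 8 comparisons with 95% intervals; filled points have an edgeR adjusted p under 0.05. Filled points are Egr1 and Arc in all 3 region contrasts, Fos between regions in low responders (1.14) and Egr1 between raphe runs (0.43).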

How the data were processed

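The submitters' processing notes name Trim Galore, STAR and the genome build rn6. For the counting program, annotation, strand setting and tool versions, nothing is given in the sources used here. Each deposited table, 1 per library, holds unnormalized whole-number counts by Ensembl gene ID, and every line names a gene. Poly-A libraries were made from RNA extracted with a miRNeasy kit, per the labels' protocols.

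Tests used the quasi-likelihood method of edgeR 4.0.16 under R 4.3.3 (glmQLFit and glmQLFTest, filterByExpr, TMM, Benjamini-Hochberg over all genes tested, threshold 0.05) on the 12 libraries of a region for the lines and for the number runs (with line as a term), and on all 24 libraries as 4 groups otherwise. Standard errors are the log2 difference divided by the square root of F, and 95% intervals use the t quantile of the fit. The tests were tried on simulated counts with changes planted in genes drawn at random. The amygdala line test recovered 62.7% of 1.5-fold and 88.1% of 2-fold changes, and the raphe line test 31.3% and 86.6%. The simulated spread was that of the quasi-likelihood fit and not each gene's own, and the line simulations held no difference between number runs. Recovery for genes as variable as these 3 was thus not simulated, and these shares do not apply to them. A later run starts at the first break in a group's file numbers. The labels do not say whether equal replicate numbers mark a shared rat, and they were not used as pairs in the tests.

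The RefSeq gene table (GRCr8) matched 0 of the IDs, so lists of other activity genes, upstream factors and tissue or cell type markers could not be applied, and the labelled tissues were not checked against markers. The symbols Fos, Egr1 and Arc were set by ID. These genes, the lists and the tests were chosen with earlier results of these data known. Besides these 3, the 2 IDs of highest and the 2 of lowest mean likeness are named. Alternatives were DESeq2 1.42.0, voom of limma 3.58.1 (quality weights on), RLE factors, scaling by library size alone, no filter on low counts, a replicate block, a term for later libraries, either run alone and leaving out each library; for correlations, a prior count of 0.5, and the earlier run alone, the last chosen after seeing the data, as were the likeness within 1 region and the count ratios.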

Additional observations from a re-analysis of the deposited data

Results flagged for a closer look

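Arc in high-responder amygdala library 4, at 101 CPM, lay far from the other 5 libraries of its group, which ranged from 17.8 to 44.3 CPM. Fos and Egr1 were also highest there, at 21.4 and 171 CPM, with smaller gaps to the next library. Low-responder dorsal raphe library 5 had 4.52 Egr1 counts per Arc count, where the other 5 libraries of its group had 1.74 to 2.66. It has the lowest Arc level of the raphe and the second highest Egr1 level. Of 24 groups of 6 values examined these 2 held a library this far out, where chance gives about 1 in 20.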

How the results depend on the processing

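Of 726 values recomputed for the 3 genes and their correlations, 708 kept their direction and their side of the threshold. Most of the 726 came from leaving out 1 library, and many belong to results far from the threshold, so few were likely to change. With later libraries alone the line difference in the amygdala became -2.44 (Fos), -0.77 (Egr1) and -1.46 (Arc) on the log2 scale and passed (as did 61 of 14284 genes), that in the raphe turned to -0.16 (Fos) and -0.37 (Egr1), and the region difference of Fos became -0.68 over both lines, -1.83 in high and 0.46 in low responders. The cause was not tested. With limma voom the raphe difference between number runs was 0.25 for Egr1 (no longer called) and turned to -0.062 for Arc. Same-numbered libraries correlated at -0.52 to 0.65 between lines and -0.30 to 0.19 between regions in their deviations from group means, and each was most like its own number in 0 to 2 of 6 cases. With a replicate block the Fos region difference in low responders was 0.93 (edgeR adjusted p = 0.0815), the one call of the 3 genes that the block changed, and the raphe line comparison called 5 genes against 9. Each library left out in turn gave 0.80 to 1.32 for that Fos difference, and between number runs in the raphe -0.0086 to 0.33 (Fos), 0.32 to 0.49 (Egr1) and -0.086 to 0.19 (Arc), and r of 0.263 to 0.769 for Egr1 and Arc in the raphe. Counts of all genes called moved more: 3 in the amygdala line comparison became 0 to 246 (27 without high-responder library 2 and 13 without low-responder library 3) and 9 in the raphe 0 to 39, the highest with limma voom and DESeq2, and 1 in the strain by region test became 0 to 2. The 3 genes rested on 64 to 403 counts in raphe libraries and on 25 to 2888 in amygdala libraries. How far counting error limits the small differences and correlations that can be seen in the raphe was not tested.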
